A study of Homo sapiens with 16 samples.

Results

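The transcripts described here are those of the red cell oxygen carrier and of the enzyme that starts red cell heme synthesis: the alpha-like globins HBA1, HBA2 and HBZ, the beta-like globins HBB, HBD, HBG1, HBG2 and HBE1, the erythroid aminolevulinate synthase ALAS2, and AHSP, the chaperone of free alpha chains. They were picked by gene symbol, and each of the 10 symbols had 1 row among the 25221 genes of the deposited count table. The cells were 2 established human leukemia lines, K562, from a chronic myeloid leukemia in blast crisis, and MOLM13, from an acute myeloid leukemia. Each line was exposed for 4 h to DMSO, the solvent, or to 20 μM Ro 08-2750 (Ro), a small molecule that inhibits RNA binding by the Musashi proteins, in 4 numbered pairs, which gave 4 libraries per group and 16 in all. The labels name no genetic change in any group. The libraries read messenger RNA from its 3′ end, so that a transcript yields about 1 read whatever its length and CPM (counts of a gene per 1000000 counts of its scaled library) of different genes can be set side by side.

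Hemoglobin is a tetramer of alpha-like and beta-like chains, each holding a heme group. The genes of each cluster are switched in development, from embryonic (HBZ, HBE1) through fetal (HBG1, HBG2) to adult (HBA1 and HBA2 from the fetus on, HBB, HBD) chains. In red cell precursors heme synthesis starts with ALAS2, whereas other cells use ALAS1, and K562 is widely used as a line with an embryonic and fetal globin program.

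The depth differed among the libraries, from 3143129 to 43571060 counts in K562 with DMSO, 13950949 to 25353764 in K562 with Ro, 8611944 to 39978791 in MOLM13 with DMSO and 14412389 to 21413885 in MOLM13 with Ro. The shallowest were the DMSO libraries of K562 pairs 2 and 4, at 3143129 and 4383241 counts. Most markers of the fixed lists separated the lines: the erythroid genes GATA1, KLF1 and TAL1 had 236 to 6238 counts in every K562 library and 0 to 4 in every MOLM13 library, and HOXA9 was at 0 in all K562 libraries. The erythropoietin receptor EPOR, also on the erythroid list, did not separate them, at 1.45 to 8.82 CPM in K562 and 1.01 to 5.41 CPM in MOLM13. Of the other marker lists, the summed monocyte and granulocyte markers were at 124 to 275 CPM in K562 and 720 to 1378 CPM in MOLM13, megakaryocyte markers at 1.3 to 6.62 CPM and lymphoid markers at 0.203 to 5.43 CPM over both lines. In bulk RNA, fewer cells making a transcript and less of it per cell cannot be told apart.

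On the chromosomes of GRCh38.p14, the alpha-like genes lie on the plus strand of chromosome 16 in the order HBZ (152644 to 154503), HBA2 (172876 to 173710) and HBA1 (176680 to 177522), and AHSP lies apart from them on the same chromosome (31527900 to 31528803, plus strand). The beta-like genes lie on the minus strand of chromosome 11, with HBB at 5225464 to 5227071, HBD at 5232838 to 5234483, HBG1 at 5248269 to 5249857, HBG2 at 5253188 to 5254781 and HBE1 at 5268345 to 5269945. ALAS2 is on the X chromosome (55009055 to 55030977, minus strand). HBA1 and HBA2, and HBG1 and HBG2, encode the same or nearly the same chain, so reads can be split between copies. Over the last 150 bases of the messenger, where these libraries read, HBG1 and HBG2 differed at 3 of 148 aligned bases and HBA1 and HBA2 at 19 of 149, against 50 of 141 for HBB and HBD.

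A 300-base promoter window, from 250 bases before the start of transcription to 50 after it, was at hand for 2 members, HBD and ALAS2 (RefSeq, GRCh38.p14), and not for HBA1, HBA2, HBZ, HBB, HBG1, HBG2, HBE1 and AHSP. Both windows are shown because no others were at hand. Both genes were read in every K562 library, while in MOLM13 HBD was at 0 and ALAS2 at 0.573 to 2.18 CPM. Each window holds some of the short words that erythroid factors read. The first is chr11:5234434-5234733 and the second chrX:55030928-55031227, each on the minus strand and written 5′ to 3′. Capitals mark the words GATAA (bound by GATA1), CACCC (bound by KLF1), CCAAT and ATAAA (part of many TATA boxes), on either strand.
HBD: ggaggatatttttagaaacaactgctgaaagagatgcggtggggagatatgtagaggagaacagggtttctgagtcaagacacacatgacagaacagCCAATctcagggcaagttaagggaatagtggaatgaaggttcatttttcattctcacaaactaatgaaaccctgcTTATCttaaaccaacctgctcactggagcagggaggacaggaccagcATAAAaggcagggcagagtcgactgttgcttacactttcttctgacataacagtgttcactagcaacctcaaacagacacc
ALAS2: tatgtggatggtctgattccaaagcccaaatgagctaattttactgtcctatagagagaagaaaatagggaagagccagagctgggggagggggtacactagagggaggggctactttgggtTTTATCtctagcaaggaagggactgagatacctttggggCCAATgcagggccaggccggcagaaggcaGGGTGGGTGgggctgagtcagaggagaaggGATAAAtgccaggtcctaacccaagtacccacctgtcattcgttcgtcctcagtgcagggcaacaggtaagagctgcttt
In the HBD window, CCAAT began 153 bases before the start, GATAA lay on the opposite strand with its window letters beginning at 78 bases, ATAAA began at 31 bases, and CACCC was not found in the window on either strand. In the ALAS2 window there were 2 matches to GATAA, at 30 and 127 bases before the start, 2 to CACCC on the opposite strand at 60 and 56 bases, 1 to CCAAT at 89 bases and 2 to ATAAA at 29 and 128 bases, each of the last 2 overlapping a GATAA. Such short words are common: of 35116 promoter windows of this length, 22.7% held GATAA, 59.9% CACCC, 34.6% CCAAT and 34.9% ATAAA on either strand.

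In K562 with DMSO, the fetal gamma chain gene HBG2 stood above all other members. It measured 1530, 2202, 1741 and 1195 CPM in pairs 1 to 4 (mean 1667 ± 422, SD, n = 4). The levels then ran in the order HBA2 (265 ± 102 CPM), HBA1 (220 ± 18.8), HBG1 (167 ± 63.8), ALAS2 (45.9 ± 5.61), HBD (19.4 ± 11.5), HBZ (10.8 ± 10.4), AHSP (7.57 ± 2.05) and HBB (1.13 ± 0.0875), and HBE1 was at 0. Among neighbours in this order, the ranges over the 4 libraries overlapped between HBA2 and HBA1, HBA1 and HBG1, HBD and HBZ, and HBZ and AHSP, so these neighbours were not separated by their spread between libraries. Within a library, HBA1 was nonetheless above HBG1, and HBD above HBZ, in 4 of 4 DMSO and 4 of 4 Ro libraries, whereas HBA2 was above HBA1 in 3 of 4 under each treatment, and HBZ above AHSP in 2 of 4 with DMSO and 3 of 4 with Ro. The ranges of HBG2 and HBA2, of HBG1 and ALAS2, of ALAS2 and HBD and of AHSP and HBB did not overlap, although the highest HBD library (36 CPM) came close to the lowest ALAS2 library (38.4 CPM). The adult beta chain gene HBB was thus close to the limit of the data, with 4 to 48 counts per library, where 3 counts correspond to 0.067 to 0.872 CPM over the 8 K562 libraries.

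**Figure D1:**
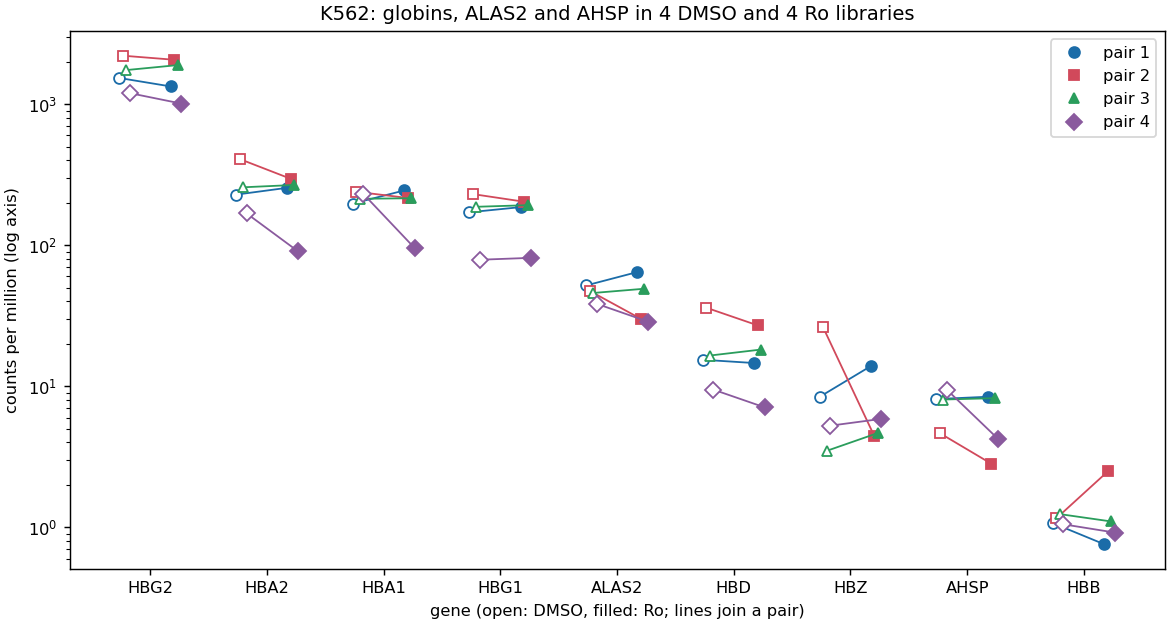
CPM (log axis) of 9 members in each K562 library, open symbols for DMSO and filled for Ro, with a line joining the libraries of a pair; HBE1, at 0 throughout, is left out. HBG2 sits at 1008 CPM or more in all 8 libraries, and pair 4 is lowest and pair 2 highest for HBG2, HBA2, HBG1 and HBD with either treatment.

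The embryonic epsilon chain gene HBE1 had 0 counts in all 16 libraries, which over the 8 K562 libraries together allows up to 0.0182 CPM (3 counts). In GENCODE version 29 the annotated span of HBG2 runs from 5253190 to 5505605 of chromosome 11 and holds the 3′ end of HBE1, so a read there falls in 2 genes on the same strand. The program that assigned reads to genes is not given in the sources used here, and the part of this overlap in the 0 was not tested. HBZ is in the same position, its 3′ end lying in the annotated span of HBM on the same strand. The 3′ end of HBG2 itself lies in a further protein-coding model on this strand, AC104389.5 (5248270 to 5254783), which has no row in the table. The annotation the authors counted with is not given either.

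Together the 8 globins took 0.22% to 0.344% of the counts of a K562 library with DMSO (mean 0.268% ± 0.0597) and 0.155% to 0.311% with Ro (0.241% ± 0.0787), and the ranges overlapped. The lowest share was in the Ro library of pair 4, 0.155% (95% Wilson interval 0.154% to 0.157%), and the highest in the DMSO library of pair 2, 0.344% (0.338% to 0.351%). Such intervals, and the limits from 3 counts, cover counting error only. Of the globin counts, the gamma genes HBG1 and HBG2 made up 75.4% to 79.7% with DMSO (77.9% ± 1.93) and 74.2% to 84.5% with Ro (79.9% ± 4.26). The alpha genes HBA1 and HBA2 made up 19.4% to 23.6% with DMSO (20.9% ± 1.9) and 14.4% to 24.4% with Ro (18.9% ± 4.13). Among these 8 globins, beta-like counts thus exceeded alpha-like counts in every library, by 2.99 to 5.72 times. The alpha-like sum leaves out HBM and HBQ1, at 38.7 and 73.4 CPM on average in K562 with DMSO, and adding these would lower the ratio. Any HBE1 reads missing because of the overlap with HBG2 would act the other way, which was not tested. All shares given here are likewise of the 8 globins. HBD, the minor adult chain, accounted for 0.549% to 1.15% of globin counts, HBZ for 0.144% to 0.832% and HBB for 0.037% to 0.0888% over the 8 libraries.

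**Figure D2:**
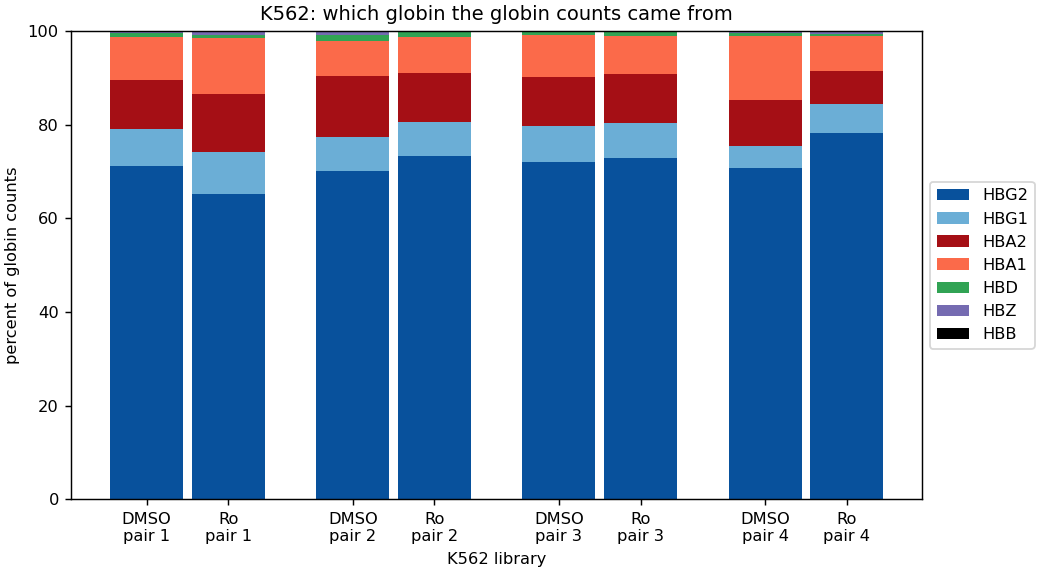
Percent of the counts of the 8 globins in each K562 library (bars, DMSO and Ro of pairs 1 to 4) that came from each of them; HBE1 had none, and HBM and HBQ1 are not included. HBG1 and HBG2 together fill 74.2% to 84.5% of every bar, and the HBA1 and HBA2 segments are smallest in the Ro library of pair 4, at 14.4%.

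Between the gamma copies, HBG2 took 87.8% to 93.8% of the counts over the 8 K562 libraries, with a mean of 91.2% ± 1.78 with DMSO and 90.5% ± 1.97 with Ro. The alpha copies were closer to equal, HBA2 taking 53.4% ± 8.59 of their counts with DMSO and 53.2% ± 4.07 with Ro. The lowest and highest HBA2 shares were both in DMSO libraries, 42.2% in pair 4 (95% Wilson interval 40.2% to 44.2%) and 63.1% in pair 2 (61% to 65%). The split between copies rests on few differing bases, above all for HBG1 and HBG2.

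MOLM13, the contrast line, carried almost none of these transcripts. With DMSO, HBG2 was at 4.48, 3.81, 2.38 and 2.44 CPM in pairs 1 to 4 and ALAS2 at 1.16, 1.24, 1.29 and 0.573 CPM. HBA2, HBD, HBG1 and AHSP were at 0 in all 8 MOLM13 libraries, HBA1 and HBZ had 1 count each in 1 library, and HBB had 1 or 2 counts in 3 libraries. Every K562 library was above every MOLM13 library for all 9 members other than HBE1.

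With the counts of the 4 DMSO libraries of each line pooled, HBG2 was 542-fold higher in K562 than in MOLM13 (95% counting interval 479 to 616, from the 250 MOLM13 counts). The ratio of the mean CPM was 509, and the fitted difference was 9.02 ± 0.375 on the log2 scale (SE; edgeR quasi-likelihood test with Benjamini-Hochberg adjustment over all genes tested, adjusted p = 2.0e-09). ALAS2 was 50.3-fold higher in pooled counts (40.5 to 63.2, from 82 MOLM13 counts) and 43.1-fold by mean CPM, with a fitted difference of 5.47 ± 0.299 on the log2 scale (edgeR, Benjamini-Hochberg adjusted p = 1.3e-08). Members at 0 in MOLM13 have only a lower bound, set by 3 counts over the 4 MOLM13 DMSO libraries (0.0355 CPM). In pooled counts, HBA2 was at least 6787-fold higher, HBG1 at least 4840-fold, HBD at least 458-fold, HBZ at least 208-fold and AHSP, which stabilises free alpha chains, at least 227-fold. HBA1, with 1 MOLM13 count, had a pooled ratio of 17433 with a counting interval of 3129 to 688551. HBB, with 2, had a pooled ratio of 47.7 (13.2 to 394) and a ratio of mean CPM of 15.7, both counts being in the shallowest MOLM13 library.

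By edgeR, 20.3% of the 15268 genes tested between the lines with DMSO were called higher in K562 (adjusted p under 0.05). Of the 10 members, 8 passed the filter on low counts and all of these 8 were called higher, while HBB and HBE1 did not pass. All but HBG2 passed that filter only through K562, and those at or near 0 in MOLM13 had to differ, so the count of 8 is no support. ALAS2 missed the filter narrowly in MOLM13, with 8, 28, 26 and 20 counts in the DMSO libraries. The lines differ in origin and in many genes, and what sets these levels was not tested.

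**Figure D3:**
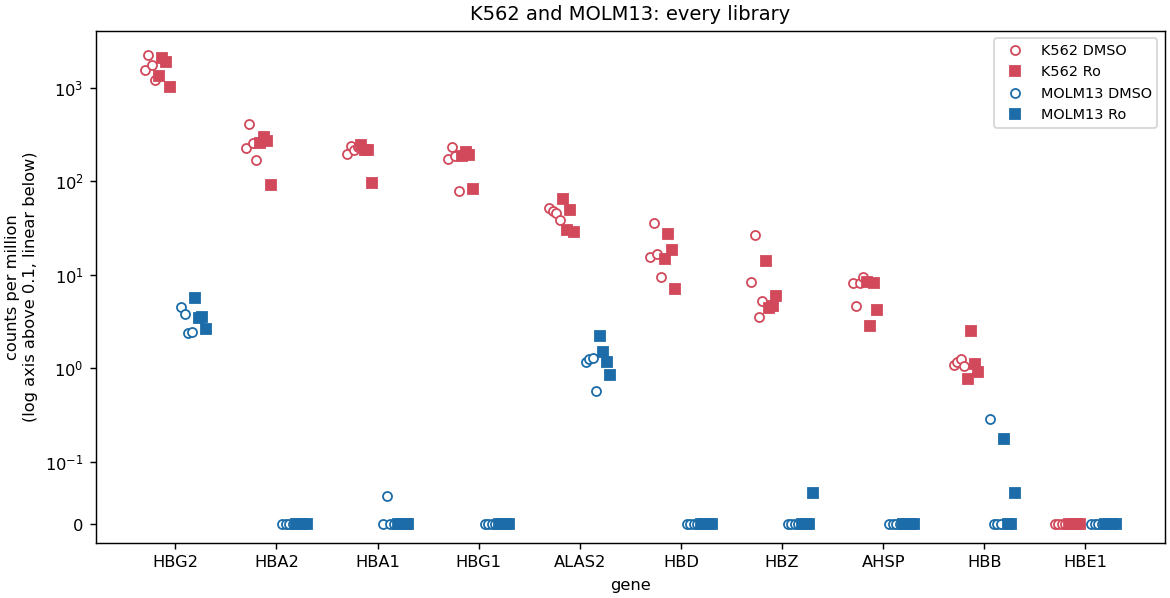
CPM of all 10 members in all 16 libraries (log axis above 0.1, linear below; circles DMSO, squares Ro). HBG2 and ALAS2 are the members read in every MOLM13 library, at 2.38 to 5.59 and 0.573 to 2.18 CPM, and HBE1 is at 0 in both lines.

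In MOLM13 the gamma copies did not appear in the K562 ratio. HBG1 took 0 of the 494 HBG1 and HBG2 counts over the 8 MOLM13 libraries, which allows a share of up to 0.607%, whereas it took 6.19% to 12.2% in each K562 library. The HBG2 counts in MOLM13 ranged from 31 to 86 per library. Whether they came from the HBG2 messenger or from another part of the long span annotated to HBG2 was not tested.

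The question of the treated libraries was whether 4 h of Ro moved these transcripts. In K562, no member was called with Ro. Among 15227 genes tested by edgeR, 0% were called at an adjusted p under 0.05, and 1.23% (187) had an unadjusted p under 0.05. The 9 members tested included none at either threshold. On simulated counts this edgeR fit recovered 39 of 185 changes of 1 in size on the log2 scale, so it can miss such changes. DESeq2 also called 0 genes, with 253 at an unadjusted p under 0.05. With pairs entered as a replicate block, 2.11% of the genes (322) had an unadjusted p under 0.05, again with no member among them, and 0 were called. The paper, by contrast, reports genes up and down with Ro in both lines at an FDR under 0.05. Its RNA sequencing methods name no test, so the lack of calls belongs to the fits used here. It did not extend to MOLM13 with the pairs as a replicate block, where edgeR called 317 genes. The fitted changes of the 9 members ran from −0.47 to 0.21 (log2), with 8 of 9 below 0 and a median of −0.17, beside 0.02 over all genes tested.

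Among the beta-like genes, HBG2 had 1333, 2060, 1888 and 1008 CPM with Ro in pairs 1 to 4, beside 1530, 2202, 1741 and 1195 CPM with DMSO. The groups overlapped, and the change was −0.08 ± 0.275 (log2, SE), with a 95% interval of −0.68 to 0.52. Its copy HBG1 had 171, 230, 187 and 78.8 CPM with DMSO and 186, 203, 192 and 81.3 with Ro. Here too the groups overlapped almost wholly, with pair 4 low in both and a change of −0.0035 ± 0.334 (−0.73 to 0.73). Counted together, HBG1 and HBG2 changed by −0.07 ± 0.28 on the log2 scale (−0.68 to 0.54).

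HBD, which encodes the minor adult delta chain, had 15.4, 36, 16.5 and 9.46 CPM with DMSO and 14.6, 27, 18.2 and 7.08 CPM with Ro. Pair 2 was highest and pair 4 lowest in both groups, which overlapped, and the change was −0.17 ± 0.417 (−1.07 to 0.74). HBB had 1.07, 1.16, 1.24 and 1.05 CPM with DMSO and 0.758, 2.49, 1.1 and 0.918 with Ro. The Ro libraries lay on both sides of the DMSO libraries, the change was 0.21 ± 0.388 (−0.64 to 1.05), and without the Ro library of pair 2 it was −0.30.

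Among the alpha-like genes, HBA1 had 197, 239, 213 and 231 CPM with DMSO and 244, 216, 215 and 95.4 CPM with Ro. The groups overlapped apart from the Ro library of pair 4, which was the lowest of the 8. The change was −0.19 ± 0.257 (−0.75 to 0.37), and 0.03 without that library. HBA2 had 228, 408, 257 and 168 CPM with DMSO and 255, 295, 267 and 90.5 CPM with Ro, again lowest in the Ro library of pair 4, for a change of −0.22 ± 0.351 (−0.98 to 0.55). In pair 4 the alpha genes together measured 399 CPM in the DMSO library and 186 CPM in the Ro library (log2 −1.10), while HBG1 and HBG2 together were at 1274 and 1089 CPM (log2 −0.23). No other pair separated the chains as much, the alpha genes being at 0.23, −0.34 and 0.04 (log2) in pairs 1 to 3 and the gamma genes at −0.16, −0.10 and 0.11.

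HBZ, the embryonic zeta chain gene, was the most variable member. It had 8.4, 26.2, 3.48 and 5.25 CPM with DMSO, a 7.51-fold range, and 13.9, 4.42, 4.66 and 5.87 CPM with Ro. The groups overlapped, and HBZ was higher with Ro in pairs 1, 3 and 4 and lower in pair 2 (log2 −2.54). The change of −0.47 ± 0.565 (−1.70 to 0.77) became 0.30 without the DMSO library of pair 2 and −1.0 without the Ro library of pair 1. HBM, the neighbouring mu globin gene whose annotated span reaches the HBZ 3′ end, was also highest in the DMSO library of pair 2, at 70.9 CPM against 29.2 CPM with Ro in the same pair.

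ALAS2 had 51.8, 47.4, 45.8 and 38.4 CPM with DMSO and 64.5, 30.0, 49.1 and 28.7 CPM with Ro. The Ro libraries spread to both sides of the DMSO libraries, with pairs 1 and 3 above their own DMSO library and pairs 2 and 4 below. The change was −0.09 ± 0.249 (−0.63 to 0.45). AHSP had 8.11, 4.65, 8.05 and 9.46 CPM with DMSO and 8.42, 2.83, 8.23 and 4.23 CPM with Ro, which overlapped, and its change was −0.38 ± 0.344 (−1.13 to 0.37). The adjusted p of all 9 members was 0.9998 (edgeR, Benjamini-Hochberg). The intervals of this fit, which leaves the pairs out, span changes of both signs. It thus leaves changes within those bounds unresolved in either direction.

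**Figure D4:**
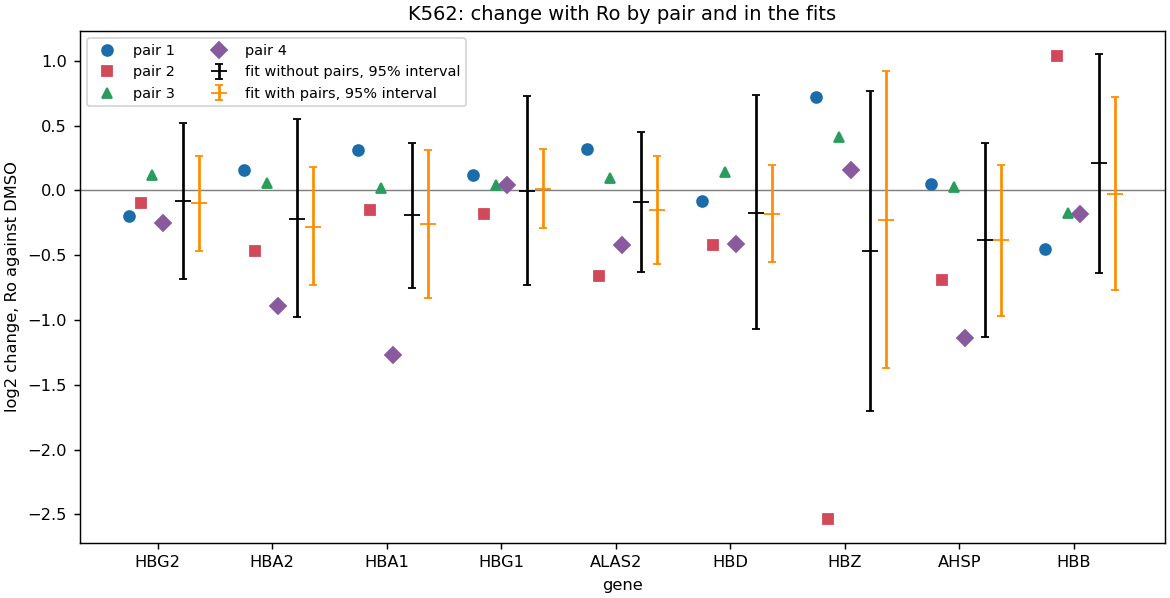
Change with Ro on the log2 scale for 9 members in K562, as one symbol per pair and as the edgeR estimate with its 95% interval without (black) and with (orange) the pairs as a block. Every interval crosses 0, and the HBZ pairs spread from −2.54 to 0.72.

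The direction of the members went with the pair. In pair 1, 6 of the 9 members were higher with Ro (median log2 change 0.12), and in pair 3, 8 of 9 (0.06). In pair 2, 8 of 9 were lower with Ro (median −0.42), and in pair 4, 7 of 9 (−0.41). Over all genes tested the medians in pairs 1 to 4 were −0.02, 0.00, 0.02 and 0.05. Pairs 2 and 4 are those with the shallow DMSO libraries, at 3143129 and 4383241 counts beside 15942703 and 25353764 in their Ro libraries, and the part of depth in this pattern was not tested. In pairs 1 and 3 alone, with the pair as a block, edgeR called 3.06% of the 13667 genes tested, and none of the 9 members was among them. The nearest was HBZ, at 0.58 on the log2 scale (edgeR, Benjamini-Hochberg adjusted p = 0.0798). At an unadjusted p under 0.05 this edgeR fit had 2 of the 9 members, beside 2071 of all genes tested. Only pairs 1 and 3 entered it, so its error rests on few libraries.

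The levels of most members also went with the pair. Among DMSO libraries, 6 of 9 members were highest in pair 2 and 6 of 9 lowest in pair 4, and among Ro libraries 5 of 9 were highest in pair 2 and 6 of 9 lowest in pair 4. HBG2, HBA2, HBG1 and HBD had this order under both treatments. AHSP went another way, being lowest in pair 2 under both treatments, and ALAS2 was highest in pair 1 under both. Taking the pair into account narrowed the error of the change from 0.334 to 0.134 for HBG1 and from 0.417 to 0.164 for HBD, with changes of 0.01 (−0.29 to 0.32) and −0.18 (−0.55 to 0.20). For HBZ the error moved less, from 0.565 to 0.501. With the pairs, the intervals were −0.47 to 0.27 for HBG2, −0.83 to 0.31 for HBA1 and −0.73 to 0.18 for HBA2. They were −1.37 to 0.92 for HBZ, −0.77 to 0.72 for HBB, −0.57 to 0.27 for ALAS2 and −0.97 to 0.20 for AHSP. All of these still span both signs, and that of HBA1 was no narrower than without the pairs.

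In MOLM13, HBG2 and ALAS2 were the members that could be tested, and neither was called. HBG2 had 5.59, 3.45, 3.48 and 2.65 CPM with Ro beside 4.48, 3.81, 2.38 and 2.44 with DMSO, a change of 0.25 ± 0.305 (−0.42 to 0.93). ALAS2 had 2.18, 1.49, 1.15 and 0.851 CPM with Ro beside 1.16, 1.24, 1.29 and 0.573, a change of 0.43 ± 0.38 (−0.42 to 1.28). The groups overlapped for both genes. By edgeR, 0% of 15031 genes were called (175 at an unadjusted p under 0.05) and DESeq2 called 1. On simulated counts, with the changed genes picked at random, this edgeR fit recovered 0 of 195 changes of 1 in size on the log2 scale. Its lack of calls over all genes thus cannot exclude such changes. For HBG2 and ALAS2 the bounds are the intervals given above. With the pairs as a replicate block, edgeR called 2.11% (317 genes) and still neither member, with adjusted p of 0.558 for HBG2 and 0.553 for ALAS2.

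The Ro effect in K562 minus that in MOLM13 was −0.32 ± 0.405 for HBG2 (−1.17 to 0.52) and −0.50 ± 0.452 for ALAS2 (−1.45 to 0.44), neither called. Of 16224 genes tested by edgeR for this difference, 0% were called, with 218 at an unadjusted p under 0.05, and DESeq2 called 0. On simulated counts this edgeR fit recovered 0 of 197 changes of 1 in size on the log2 scale, so it could hardly call a difference. For the other 7 members tested MOLM13 held 3 or fewer counts per group, and no difference is given.

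A set of 7 other enzymes of heme synthesis, a pathway all cells need, was read in both lines. None of the 7 was called with Ro in K562 or MOLM13, with or without the pair block. ALAS1, the form of the first enzyme used outside the red cell lineage, had the highest change in K562, from 10.5 ± 2.29 to 13.8 ± 2.09 CPM (0.38 ± 0.203), and its Ro library was above its DMSO library in all 4 pairs. UROS, UROD and PPOX had changes of −0.10 to −0.07 and ALAD, CPOX and FECH of 0.12 to 0.18. Between the lines with DMSO, 3 of the 7 were called higher in K562 and 3 lower. UROD, which decarboxylates uroporphyrinogen, was at 305 ± 108 CPM in K562 and 11.7 CPM in MOLM13 (4.68 on the log2 scale). PPOX and FECH were the others called higher (2.67 and 2.55), and ALAS1, ALAD and UROS were called lower (−0.86, −0.98 and −1.10; edgeR, Benjamini-Hochberg adjusted p under 0.05 for each).

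Of 11 genes for iron supply and for mitochondrial transport of iron and heme precursors, none was called with Ro in either line. In K562, 10 of the 11 changes were above 0, with a median of 0.13 beside 0.02 over all genes tested. TMEM14C, a mitochondrial porphyrin transporter, measured 85.3 ± 27.5 CPM in DMSO libraries and 107 ± 32.2 in Ro libraries (0.34 ± 0.261). STEAP3, the ferrireductase of the transferrin cycle, was the exception, at 13.5 ± 3.18 and 10.8 ± 0.561 CPM (−0.29 ± 0.198). CLPX, which activates the first enzyme of the pathway, and FLVCR1, a heme exporter, had changes of 0.24 ± 0.187 and 0.21 ± 0.165. Between the lines with DMSO, 7 of the 11 were called higher in K562 and none lower, and the transferrin receptor TFRC was at 399 ± 103 CPM in K562 and 141 in MOLM13 (1.5 on the log2 scale).

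Of 14 regulators of the globin genes, none was called with Ro in K562, where 9 had changes below 0 and the median was −0.27. MYB, which keeps precursors proliferating, was at 122, 188, 152 and 175 CPM in the DMSO libraries and 71.3, 103, 119 and 139 CPM after Ro, lower in every pair, with a change of −0.55 ± 0.227. NFE2, an activator that binds the globin locus control region, was at 57.8, 94.7, 77.5 and 89.7 CPM and 33.7, 52.8, 66.8 and 72.3 CPM (−0.49 ± 0.246), and KLF1, the activator that reads CACCC, at 111, 103, 125 and 219 CPM and 93.3, 83, 104 and 135 CPM (−0.42 ± 0.26). Both were lower with Ro in every pair, although the groups overlapped. ZFPM1, the cofactor of GATA1, had a change of −0.50 ± 0.319. In MOLM13, MYB fell by 0.51 on the log2 scale in the fit with the pair block (edgeR, Benjamini-Hochberg adjusted p = 8.2e-04), and was not called without the block (−0.55).

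Between the lines with DMSO, 10 of the 14 regulators were called higher in K562 and 3 lower (MYB, ZBTB7A and BCL11A). Of the 10, GATA1, KLF1 and TAL1 passed the filter only through K562 and had to differ, which leaves 7 others. Over all genes tested 20.3% were called higher in K562, a share that also holds genes passing only through K562. BCL11A, a repressor of the gamma globin genes, was at 1.16 to 3.15 CPM in K562 and 121 to 192 CPM in MOLM13 over all libraries (−6.09 on the log2 scale with DMSO; edgeR, Benjamini-Hochberg adjusted p = 5.0e-09). Its level was thus opposite in order to that of HBG2 in these 2 lines, as were those of MYB (−1.29) and ZBTB7A (−0.91). The 10 regulators called higher in K562 had the same order as HBG2. Among them was SOX6 (0.94 on the log2 scale, edgeR, Benjamini-Hochberg adjusted p = 0.00631). Whether any of these genes bears on the HBG2 level was not tested.

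**Figure D5:**
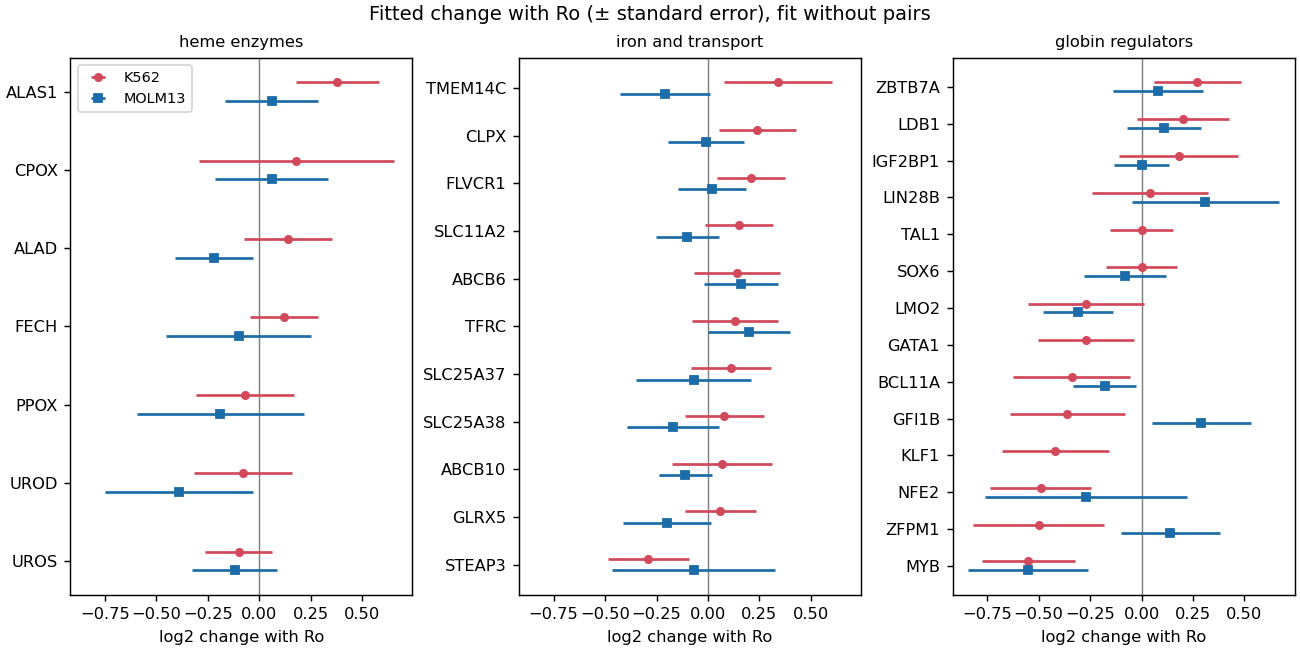
Fitted log2 change with Ro (points) and its standard error (bars) for 7 shared heme enzymes, the 11 iron and transport genes and the globin regulators in K562 (red) and MOLM13 (blue), without the pair block. None of these changes was called; MYB lies at −0.55 in both lines, and TAL1, GATA1 and KLF1 have no MOLM13 point because they did not pass the filter there.

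None of 10 red cell membrane genes was called with Ro in either line. In K562 their median change was 0.01, and the widest among those at 10 CPM or more were KEL (0.30 ± 0.278), SLC4A1, the anion exchanger (−0.24 ± 0.335), EPB41 (0.22 ± 0.279) and RHAG, the Rh-associated glycoprotein (0.20 ± 0.244). With DMSO, all 9 of them that passed the filter were called higher in K562 than in MOLM13, by 0.97 to 8.53 on the log2 scale, beside 20.3% of all genes tested. GYPB, RHAG and KEL passed only through K562 and had to differ, which leaves 6. Of the other globins, HBM was at 38.7 ± 22 CPM and HBQ1, the theta globin gene, at 73.4 ± 25.8 CPM in K562 with DMSO, and with Ro they were at 31.5 ± 10.4 (−0.27 ± 0.346) and 62.1 ± 6.91 CPM (−0.24 ± 0.222), neither called. HBQ1 thus stood above HBD, HBZ and HBB. MB, CYGB and NGB were at 0.0512 to 0.280 CPM on average in K562 groups.

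Of the genes that sense heme or are repressed in its absence, EIF2AK1, the heme-regulated kinase, was at 106 ± 16.5 CPM with DMSO and 112 ± 7.44 with Ro in K562 (0.09 ± 0.165). HMOX1, which degrades heme, was at 0.581 to 2.98 CPM in every K562 library. In MOLM13 it was at 9.53, 51.4, 64.4 and 2.64 CPM in the DMSO libraries and at 302, 190, 295 and 6.26 CPM after Ro, higher in every pair. It rose by 2.51 on the log2 scale in the fit with the pair block (edgeR, Benjamini-Hochberg adjusted p = 2.9e-05), and was not called without it (2.65).

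The genes whose profile over the 8 K562 libraries was most like that of the summed globins were HAND2, LIG3, TMEM27, GLUL and SMAP2, with root mean square differences of 0.122 to 0.145 between the centred log2 profiles. The summed globins themselves varied by 0.389 about their mean on this measure, and the median difference over other tested genes was 0.51. HBG2, which makes up most of the sum, was at 0.0692. Among the other globins the distance ran from 0.249 for HBA2 to 0.889 for HBZ, the farthest of all members tested. The members of other roles lay within this range, with 0.44 for ALAS2 and 0.752 for AHSP.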

How the data were processed

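The authors prepared QuantSeq 3′ libraries with external spike-in RNA and deposited 1 table of raw read counts per gene for the 16 libraries. Per the submitters' processing notes, Trim Galore, STAR 2.5.3a, SAMtools 1.5 and the hg38 build were used, and the counting program is not given in the sources used here. Spike-in counts were not used here. Every column had a sample (0 without). The 10 members and the gene lists were chosen with earlier results of these data known.

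The filter kept genes reaching 10 counts in 4 or more libraries of a comparison, and these were tested on the deposited counts with edgeR 4.0.16 (TMM scaling, quasi-likelihood test, R 4.3.3), and calls needed a Benjamini-Hochberg adjusted p under 0.05, two-sided. DESeq2 1.42.0 was an alternative. Each line was fitted on its own 8 libraries, the line difference on all 16, and the DMSO lines on 8. CPM used TMM sizes over 16 libraries, and changes by pair added a prior count of 2 at the mean library size. Scripts were tested on simulated counts with known changes of 1 in size on the log2 scale. For the Ro fits, these simulations kept the observed mean of each pair and gave every gene the same spread. The changed genes were picked at random whatever their level, so the recoveries below are not those of the members. Without the block, edgeR recovered 39 of 185 in K562, 0 of 195 in MOLM13 and 0 of 197 for the line difference. With the block it recovered 130 of 192, 126 of 195 and 40 of 199, with 10, 1 and 4 false calls. The fits without the block thus missed most or all changes of this size. Other alternatives were 3 scalings, other count filters, each library left out, K562 pairs 1 and 3 alone, all 16 libraries in 1 fit, members out of the totals, and copies summed.

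The labels number the pairs. In both lines every same-numbered DMSO and Ro library deviated together, with correlations of 0.352, 0.11, 0.417 and 0.245 in K562 (mean 0.281, against −0.0927 for different numbers) and 0.624, 0.44, 0.384 and 0.831 in MOLM13 (0.57 against −0.162), so the replicate block was taken to pair them. No label says that pairs were separate cultures, so p-values measure the spread between these libraries, which may be technical. Lists named in the text took any gene called with Ro with or without the block, and the 4 with the widest K562 change at 10 CPM or more, plus the 7 heme enzymes and the 5 genes most like the summed globins. BCL11A, ZBTB7A, SOX6, TFRC, MB, CYGB and NGB were named after their values were seen. Gene positions are from RefSeq GRCh38.p14 and overlaps from GENCODE version 29. Some genes of the lists are not reported here, and the counts leave them out.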

Additional observations from a re-analysis of the deposited data

Results flagged for a closer look

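In 22 groups of 4 libraries, a single library stood apart by Dixon's gap criterion in 2, where chance gives about 1 in 20 groups. HBZ was at 13.9 CPM in the Ro library of K562 pair 1, beside 4.42, 4.66 and 5.87 CPM in the other Ro libraries (gap 0.847 of the range). HBG1 was at 81.3 CPM in the Ro library of K562 pair 4, below the other Ro libraries by 0.855 of the range, and its DMSO library in the same pair was also lowest, at 78.8 CPM.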

How the results depend on the processing

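No member was called with Ro in either line under any alternative run. Signs of the K562 changes were not stable. In pairs 1 and 3 only, with the replicate block, log2 changes were 0.15 for HBA1, 0.09 for HBA2, 0.58 for HBZ, −0.32 for HBB, 0.02 for HBD, 0.06 for HBG1, 0.19 for ALAS2 and 0.03 for AHSP. With the replicate block over all pairs they were −0.03 for HBB and 0.01 for HBG1 in edgeR and −0.01 and 0.004 in DESeq2, and with no filter HBG1 was at 0.01. Leaving out 1 library at a time gave −0.34 to 0.03 for HBA1, −0.40 to 0.06 for HBA2, −1.0 to 0.30 for HBZ, −0.30 to 0.36 for HBB, −0.53 to 0.24 for HBD, −0.23 to 0.22 for HBG1, −0.26 to 0.08 for HBG2 and −0.37 to 0.06 for ALAS2. AHSP stayed between −0.61 and −0.18. The cause was not tested.

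Genes called in K562 numbered 0 without and with the block in edgeR, 2 with the replicate block in DESeq2 and 418 in pairs 1 and 3. In MOLM13 they were 317 with the replicate block in edgeR, 1 in DESeq2 and 266 with the block in DESeq2. For the line difference of the Ro effect DESeq2 with the block called 3. Between the lines with DMSO, edgeR called 6313 genes and alternatives 5048 to 7031. Members called there ranged from 2 to 9, with 8 in the fit reported and 9 with no filter: without any 1 K562 DMSO library, 3 K562 libraries remain and genes at 0 in MOLM13 cannot pass a filter of 4 libraries. HBB, at 4 to 48 counts, did not pass a minimum of 50 counts.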
